A study of Homo sapiens with 44 samples.

Results

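The NF-κB system was followed through 10 of its genes across all 11 groups of a cytokine stimulation experiment: the subunit genes NFKB1, NFKB2 and RELB, the IκB genes NFKBIA, NFKBIE and NFKBIZ, the ubiquitin regulators TNFAIP3 and TNIP1, and the receptor complex genes BIRC3 and TRAF1. They were chosen by their symbols as a list of subunit and negative feedback genes, with earlier results of these data known. Of these, 10 of 10 were among the 40663 symbols of the count table. After a filter on low counts, 7 of the 10 were among the 9513 genes tested. RELB, NFKBIE and TRAF1 had too few counts for that test. They are given by their counts, and NFKBIE and TRAF1 also by a fit without the filter. Of the 7 tested genes, 5 rose with TNF, where 5.37% of all tested genes were called higher, and 5 with IL-1β, where 3.46% were. The largest fold changes were those of BIRC3 and TNFAIP3. IL-17A raised NFKBIZ from 10.2 CPM ± 4.25 to 71.2 CPM ± 16.7 (SD, n = 4), where CPM are counts scaled to a common library size. BIRC3 was at 4.92 CPM ± 4.06 with IL-17A and 7.13 CPM ± 11.2 in unstimulated cells. Of the 43 unstimulated BIRC3 counts, 35 were in replicate 4.

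Bulk RNA-seq was performed on Ccd-18Co, an established human colon fibroblast line. Cells were kept without serum for 72 h and then received a single cytokine for 24 h, and the groups, named here with the label in parentheses, were unstimulated, TNF, IL-1β (IL1B), IL-17A (IL17A), IFNα (IFNA), IFNγ (IFNG), OSM, TGF-β1 (TGFB1), IL-13 (IL13), IL-6 (IL6) and IL-22 (IL22). The dose was 10 ng/ml for 9 of the cytokines. The labels and the methods put IL-1β at 0.1 ng/ml, while a figure legend of the paper puts it lower. Each group held 4 libraries of this 1 line, 44 in all, and no source states that they came from separate cultures, so the p-values below measure the spread between these libraries. All 44 libraries carried the fibroblast markers COL1A1, COL1A2, COL3A1, COL6A1, VIM, DCN, LUM and THY1 at over 3 counts, and 41 carried PDGFRB. The epithelial markers EPCAM, CDH1 and KRT20, the leukocyte markers PTPRC, CD3E and MS4A1 and the endothelial markers PECAM1 and CDH5 never exceeded 3 counts. VIL1 was above 3 counts in 42 libraries, CD68 in 34, and LYZ and VWF in 2 each. Total counts ran from 742173 to 2213424 per library, with a median of 1480882.5, so that 3 counts corresponded to 1.39 to 3.85 CPM. Library sizes were normalised before levels were computed, and a level in bulk RNA cannot tell fewer expressing cells from less RNA per cell.

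NF-κB is a family of dimeric transcription factors held in the cytoplasm of resting cells by IκB proteins. Receptors for TNF and IL-1 activate IκB kinase, which marks the inhibitor for degradation and releases the dimers to the nucleus, where they bind κB sites. Several of the genes that NF-κB switches on encode its own precursors and inhibitors, so that the transcripts of these genes are commonly read as a record of pathway activity in fibroblasts and other cells.

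To show the κB sequences at these genes, promoter windows from 250 bases before to 50 bases after each annotated start were taken from RefSeq on GRCh38.p14. Of the 10 genes, 8 had at least 1 window, and RELB and NFKBIE had none in the table used. The κB consensus motif of 10 bases, searched on both strands, was found in at least 1 window of 7 of these 8 genes and in 9 of their 15 windows. For reference, it was found in 5.91% of all 35116 windows and in at least 1 window of 7.09% of all 27305 genes. A match describes letters and not a bound site. The stretches below carry the matches in capitals, written 5′ to 3′ on the strand of the gene, and are shown because these are the genes whose levels are described next. The NFKB2 capitals hold 2 overlapping matches and the BIRC3 and TNFAIP3 stretches 2 separate matches each. For NFKB2 and NFKBIZ not every match is printed. NFKB2 had matches at 3 positions in 1 window and at 2 in another, and NFKBIZ had a further match in its other window, at chr3:101849265-101849294.

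BIRC3, chr11:102317270-102317373, plus strand, matches 199 and 135 bases before the start: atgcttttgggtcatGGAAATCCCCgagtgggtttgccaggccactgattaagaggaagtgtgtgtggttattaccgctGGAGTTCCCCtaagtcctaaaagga
TNFAIP3, chr6:137867188-137867217, plus strand, matches 67 and 55 bases before the start: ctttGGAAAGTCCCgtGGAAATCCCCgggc
NFKBIA, chr14:35404806-35404845, minus strand, match 81 bases before the start: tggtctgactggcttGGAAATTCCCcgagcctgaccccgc
NFKBIZ, chr3:101827757-101827786, plus strand, match 223 bases before the start: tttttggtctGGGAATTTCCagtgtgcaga
NFKB1, chr4:102501300-102501329, plus strand, match 49 bases before the start: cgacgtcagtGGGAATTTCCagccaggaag
NFKB2, chr10:102394462-102394491, plus strand, first match 107 bases before the start: aaacgtcatGGGAATTCCCCcctccggggg
TNIP1, chr5:151081057-151081086, minus strand, match 42 bases before the start: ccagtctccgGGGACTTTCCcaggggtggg

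The BIRC3 and NFKBIA stretches lay outside annotated exons in GENCODE release 44. The TNFAIP3, NFKB2 and TNIP1 stretches overlapped annotated exons of transcripts of the same gene, the NFKBIZ stretch an exon of its neighbour NXPE3, and the NFKB1 stretch an exon of a long non-coding RNA. NFKBIZ and NFKB1 shared the same 10 letters at the matches printed. None of the TRAF1 windows held the motif.

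In unstimulated cells NFKBIA stood above the other members. Per length of the canonical transcript, its level was 28.6 CPM per kb ± 14.7 (SD, n = 4), followed by NFKBIZ at 2.61 CPM per kb ± 1.08 and NFKB1 at 2.31 CPM per kb ± 1.80. The levels of NFKBIZ and NFKB1 did not differ beyond their spread. BIRC3 was at 1.04 CPM per kb ± 1.63, TNIP1 at 0.85 CPM per kb ± 1.07, NFKB2 at 0.514 CPM per kb ± 0.501 and TNFAIP3 at 0.253 CPM per kb ± 0.438, and each of these SDs was larger than the distance to the next gene. With TNF the order changed to NFKBIA at 242 CPM per kb ± 15.6, BIRC3 at 124 CPM per kb ± 23.7, TNFAIP3 at 11.2 CPM per kb ± 3.14, NFKB1 at 8.28 CPM per kb ± 1.20 and NFKBIZ at 5.78 CPM per kb ± 1.72. With IL-1β it was NFKBIA at 173 CPM per kb ± 17.9, BIRC3 at 42.9 CPM per kb ± 9.06, NFKBIZ at 22.6 CPM per kb ± 3.20, NFKB1 at 7.88 CPM per kb ± 0.834 and TNFAIP3 at 6.0 CPM per kb ± 1.78. The library values per kb of TNFAIP3, NFKB1 and NFKBIZ overlapped with TNF, as did those of NFKB1 and TNFAIP3 with IL-1β. BIRC3 thus stood within the spread of the low genes in unstimulated cells and next to NFKBIA under both cytokines, and NFKBIZ stood next to BIRC3 with IL-1β.

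**Figure D1:**
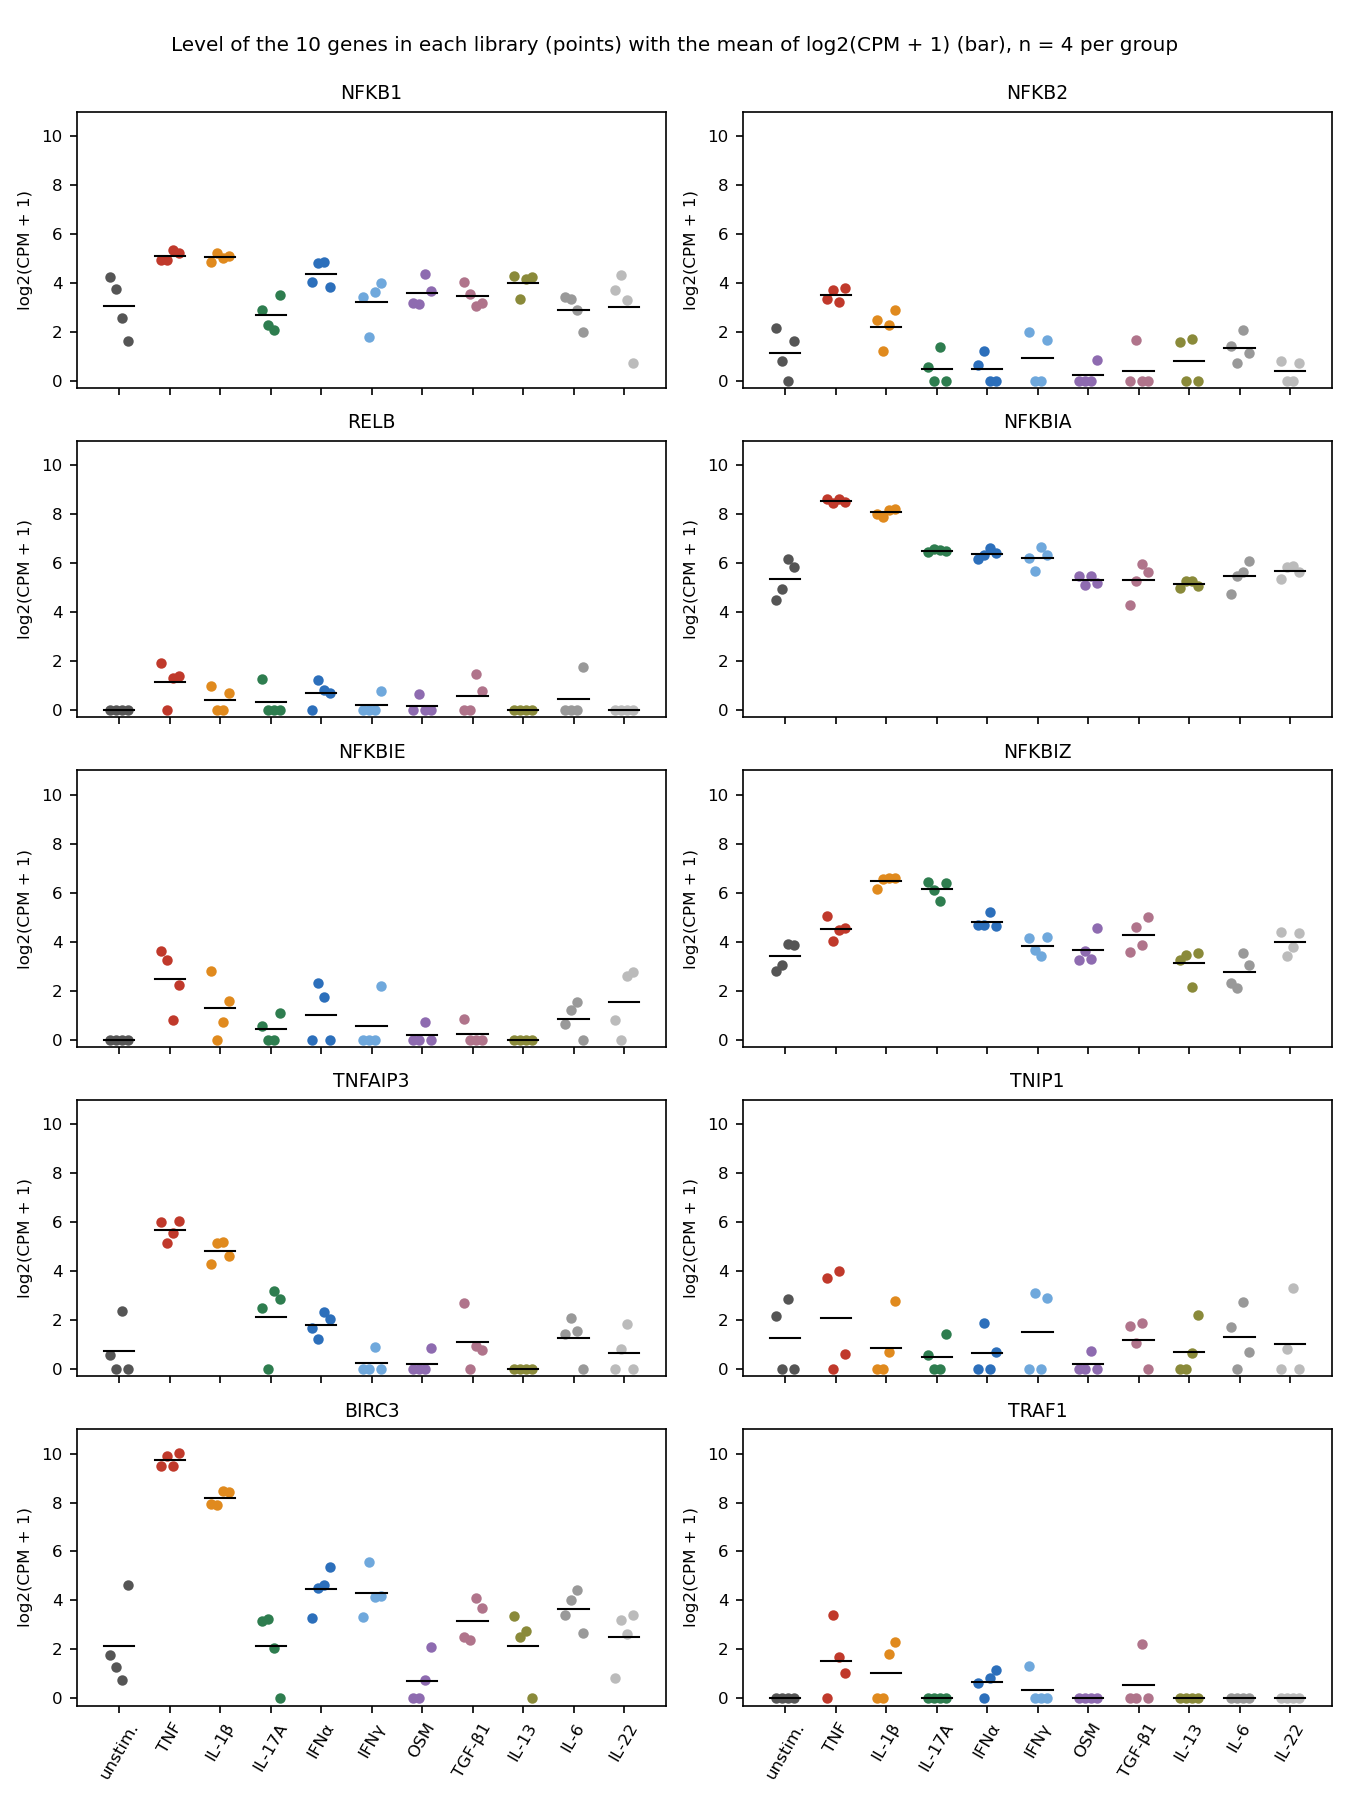
Level of each of the 10 genes as log2(CPM + 1), with 1 point per library, a bar at the mean of 4 libraries and the 11 groups along the horizontal axis. BIRC3 and NFKBIA were highest in the TNF libraries and NFKBIZ in the IL-1β and IL-17A libraries. The mean of TNFAIP3 was highest with TNF, where its libraries overlapped those with IL-1β. RELB, NFKBIE and TRAF1 were at 0 in all unstimulated libraries and at most at 2.82, 11.3 and 9.47 CPM in any library, each with TNF.

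Each cytokine was compared with unstimulated cells by edgeR's quasi-likelihood test over all 9513 genes, and a gene was called at a Benjamini-Hochberg adjusted p under 0.05. With TNF, 5 of the 7 tested members were called higher and 0 lower, where 5.37% of all tested genes were called higher. With IL-1β, 5 of 7 were called higher and 0 lower, against 3.46% of all tested genes. When an absolute log2 fold change above 1.5 was also required, 4 of 7 remained with TNF (NFKB1, NFKBIA, TNFAIP3 and BIRC3, against 1.85% of all tested genes) and 5 of 7 with IL-1β (against 1.47%). IL-17A called 2 of 7 higher, against 0.599% of all tested genes. IFNα called 2 of 7 higher, against 4.99%, and IFNγ 1 of 7 higher, against 5.52%. The median log2 fold change of the 7 tested members was 2.64 with TNF and 2.61 with IL-1β, beside medians of -0.02 and -0.01 over all tested genes. The TNF median was the value of NFKB2, which was not called and had passed the filter on low counts through the TNF libraries. With IL-17A the members' median was -0.49, with IFNα 1.11 and with IFNγ 0.44. All 10 comparisons share the same 4 unstimulated libraries.

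**Figure D2:**
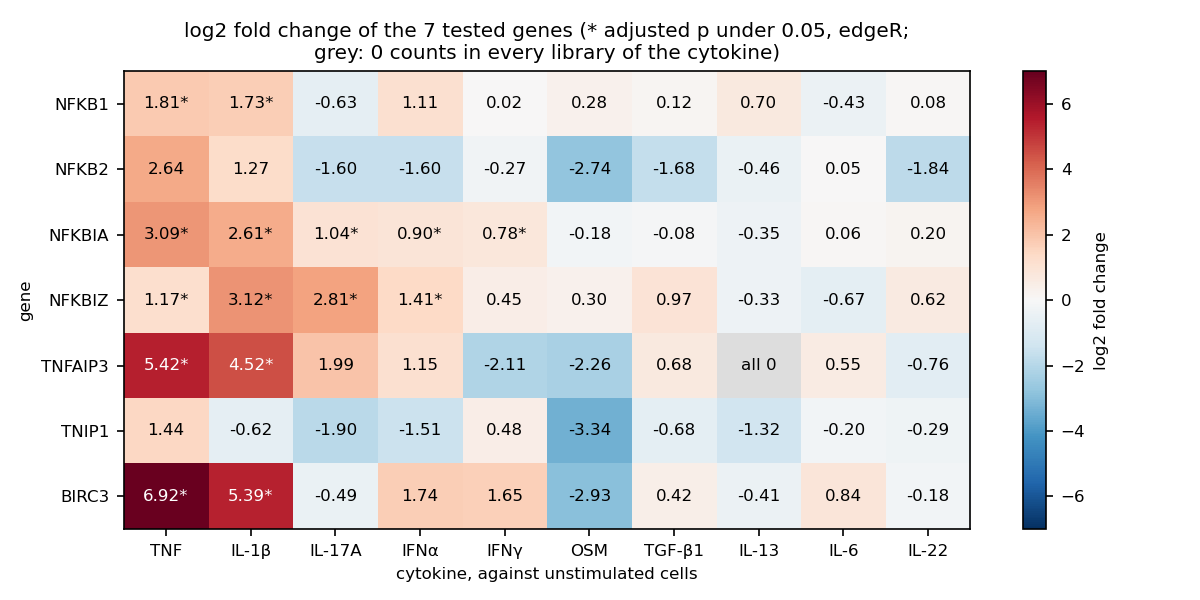
Heat map of the log2 fold change of the 7 tested genes (rows) for each cytokine against unstimulated cells (columns), with an asterisk where the adjusted p was under 0.05 in edgeR and a grey cell where the cytokine libraries held 0 counts. Asterisks stand in 5 cells of the TNF column and 5 of the IL-1β column, 2 with IL-17A, 2 with IFNα and 1 with IFNγ.

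Among the subunits, NFKB1 (chr4:102501330-102617302, plus strand), which encodes p105, the precursor of p50, rose with both TNF and IL-1β. Its level was 18.1, 12.4, 4.92 and 2.05 CPM in the 4 unstimulated libraries, 29.6, 29.3, 39.0 and 36.4 CPM with TNF, and 27.8, 35.8, 31.1 and 33.1 CPM with IL-1β. All 8 stimulated libraries lay above the highest unstimulated one, while the unstimulated libraries themselves spread widely. The log2 fold change was 1.81 ± 0.512 (SE) with TNF (adjusted p = 0.0137) and 1.73 ± 0.511 with IL-1β (adjusted p = 0.025). The TNF call was lost without unstimulated replicate 3 or 4 (adjusted p = 0.0548 and 0.0677). The IL-1β call was lost without either of these or without IL-1β replicate 2 or 4 (adjusted p = 0.0934, 0.118, 0.0563 and 0.054). With IFNα the NFKB1 level was 20.8 CPM ± 7.66 (SD, n = 4), a log2 difference of 1.11 that did not pass (adjusted p = 0.19). In the other 7 cytokine groups the mean lay between 5.98 CPM with IL-17A and 15.6 CPM with IL-13, and all of these groups overlapped the unstimulated libraries.

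NFKB2 (chr10:102394110-102402524, plus strand) encodes p100, the precursor of p52 and an inhibitor that retains RelB. Its level was 3.43, 0.729, 0 and 2.05 CPM in unstimulated cells and 9.18, 12.1, 8.25 and 12.9 CPM with TNF. The groups did not overlap, at 11 counts in all against 62. NFKB2 passed the filter on low counts through the TNF libraries, the group with its highest levels, so its tests with TNF are not separate from that filter. The log2 difference of 2.64 ± 0.915 just missed the threshold (adjusted p = 0.0519), and it passed with DESeq2 size factors (adjusted p = 0.0498), with the DESeq2 Wald test (adjusted p = 0.0416) and with only the 8 libraries compared (adjusted p = 0.0255). It did not pass without a count filter (adjusted p = 0.186) or with a filter of at least 10 counts in at least 4 libraries. With IL-1β it was at 4.54, 1.33, 3.81 and 6.49 CPM, overlapping the unstimulated libraries (log2 difference 1.27, adjusted p = 0.562). In the other 8 cytokine groups the mean was between 0.206 CPM with OSM and 1.69 CPM with IL-6.

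RELB (chr19:45001461-45038192, plus strand), the partner of p52 in the alternative pathway, was at 0 counts in all 4 unstimulated libraries. TNF gave the most, at 2.82, 0, 1.5 and 1.61 CPM, or 9 counts over 4 libraries. Its mean of 1.48 CPM was below the level of 3 counts in the unstimulated libraries (1.95 CPM), so no fold is given. RELB was at 0 in every library with IL-13 and IL-22 as well, and at 1 to 4 counts in all in each of the remaining groups. Its response was not detectable at this depth.

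NFKBIA (chr14:35401079-35404749, minus strand) encodes IκBα, the inhibitor that NF-κB itself resynthesises, and was called in 5 of the 10 cytokine comparisons. Its level was 21.5, 29.9, 71.1 and 56.0 CPM in unstimulated cells. With TNF it was 399, 354, 396 and 357 CPM, and with IL-1β 255, 239, 288 and 298 CPM. Every TNF library lay above every IL-1β library and every IL-1β library above the unstimulated range. The log2 fold change was 3.09 ± 0.268 with TNF (adjusted p = 7.31e-12) and 2.61 ± 0.265 with IL-1β (adjusted p = 5.41e-10).

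IL-17A, IFNα and IFNγ gave smaller rises of NFKBIA. With IL-17A its level was 86.7, 93.6, 93.0 and 90.2 CPM, the narrowest spread of any group (SD 3.14 CPM), and the log2 fold change was 1.04 ± 0.261 (adjusted p = 0.0256). With IFNα it was 71.1, 79.0, 98.5 and 83.4 CPM, and the rise of 0.90 ± 0.262 on the log2 scale passed (adjusted p = 0.0169). The lowest IFNα library lay only just above the highest unstimulated one, and the 4 IFNγ libraries, at 72.3, 50.7, 101 and 79.7 CPM, overlapped the unstimulated range. The IFNγ log2 fold change of 0.78 ± 0.264 was at the threshold (adjusted p = 0.0497). Each of the 3 calls depended on the unstimulated libraries: without unstimulated replicate 1 the adjusted p was 0.172 with IL-17A, 0.106 with IFNα and 0.199 with IFNγ, and without unstimulated replicate 2 it was 0.162, 0.0855 and 0.172. The call was also lost without IL-17A replicate 2, 3 or 4 (adjusted p = 0.0662, 0.0565 and 0.0536), IFNα replicate 3 (0.0601), or IFNγ replicate 1, 3 or 4 (0.0512, 0.176 and 0.0947). With OSM, TGF-β1, IL-13, IL-6 and IL-22, NFKBIA had means of 34.7 to 51.1 CPM beside 44.6 CPM in unstimulated cells.

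NFKBIZ (chr3:101827991-101861022, plus strand), which encodes IκBζ, a nuclear cofactor of p50 homodimers rather than a cytoplasmic inhibitor, had another order of cytokines. Its level was 5.88, 7.29, 14.1 and 13.7 CPM in unstimulated cells, 70.1, 92.1, 95.3 and 97.3 CPM with IL-1β and 85.8, 67.9, 48.9 and 82.1 CPM with IL-17A. TNF gave 31.8, 15.5, 21.0 and 22.5 CPM, and IFNα 24.8, 24.4, 35.7 and 23.7 CPM. The IL-1β and IL-17A libraries overlapped each other and lay above all TNF and IFNα libraries, which in turn overlapped each other and lay above all unstimulated libraries. The log2 fold change was 3.12 ± 0.369 with IL-1β (adjusted p = 2.63e-08) and 2.81 ± 0.367 with IL-17A (adjusted p = 4.15e-06). With IFNα it was 1.41 ± 0.368 (adjusted p = 0.00674), and with TNF 1.17 ± 0.371 (adjusted p = 0.0309). The TNF call was lost without TNF replicate 1 (adjusted p = 0.121) or without unstimulated replicate 1 or 2 (adjusted p = 0.112 and 0.105). With TGF-β1 the level was 10.9, 23.4, 13.6 and 31.6 CPM, a log2 difference of 0.97 that did not pass (adjusted p = 0.126). In the annotation, exons of NFKBIZ share 194 bases with exons of NXPE3 on the same strand, which limits how reads there can be assigned.

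NFKBIE (chr6:44258166-44265788, minus strand) encodes IκBε and was at 0 counts in all 4 unstimulated libraries. With TNF it was at 11.3, 8.61, 0.75 and 3.75 CPM, or 34 counts over 4 libraries. The mean of 6.10 CPM was 3.12-fold the level of 3 counts per library in unstimulated cells (1.95 CPM on average over the 4 libraries). TNF replicate 3, with 1 count, lay below that level, so the fold holds for the mean and not for every library. In a fit without the count filter, over 23518 genes, the difference between TNF and unstimulated cells passed (edgeR adjusted p = 0.00427). The same fit gave an adjusted p of 0.0804 for IL-1β, with 16 counts over 4 libraries. Values of this unfiltered fit need caution, as described for BIRC3 below. With IL-22 it had 14 counts in all (adjusted p = 0.218), and every other group had 9 or fewer.

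TNFAIP3 (chr6:137867214-137883314, plus strand), which encodes the ubiquitin-editing enzyme A20, was near 0 in unstimulated cells and rose with TNF and IL-1β. Its level was 0.49, 0, 4.22 and 0 CPM in unstimulated cells, 62.8, 34.5, 45.8 and 65.3 CPM with TNF and 18.7, 34.5, 35.6 and 23.4 CPM with IL-1β. The log2 fold change was 5.42 ± 0.846 with TNF (adjusted p = 9.08e-06) and 4.52 ± 0.836 with IL-1β (adjusted p = 0.000162). Of the 7 unstimulated counts, 6 were in replicate 3, and without that library the fitted values were 7.53 and 6.62, which then rest on a single count. With IL-17A the level was 4.64, 0, 8.01 and 6.32 CPM, of which 3 libraries lay above the unstimulated range, and the log2 difference of 1.99 did not pass (adjusted p = 0.32). It passed without unstimulated replicate 3. With IL-13 all 4 libraries held 0 counts, and OSM and IFNγ held 1 count each. Exons of TNFAIP3 share 95 bases with the antisense WAKMAR2, and the sources used here do not give the strand setting of the counting.

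TNIP1 (chr5:151029945-151093577, minus strand) encodes ABIN-1, an adaptor that helps A20 to reach its ubiquitin-bearing targets. No comparison called it. Its level was 12.0, 0, 15.0 and 0.536 CPM with TNF and 3.43, 0, 6.33 and 0 CPM in unstimulated cells. In both groups, 2 libraries carried the counts and 2 were at or next to 0, so the log2 difference of 1.44 had an SE of 1.26 and a 95% interval from -1.12 to 4.00 (adjusted p = 0.553). Across the remaining 9 groups the mean was between 0.167 CPM with OSM and 3.47 CPM with IFNγ.

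BIRC3 (chr11:102317484-102339403, plus strand), which encodes the ubiquitin ligase cIAP2 of the TNF receptor complex, had the largest fold changes of the 7 tested members with TNF and with IL-1β. Its level was 2.45, 1.46, 0.704 and 23.9 CPM in unstimulated cells, 724, 948, 712 and 1038 CPM with TNF and 244, 238, 351 and 347 CPM with IL-1β. Unstimulated replicate 4 held 35 of the 43 unstimulated counts and stood apart from the other 3 libraries, and still lay far below every TNF and IL-1β library. The log2 fold change was 6.92 ± 0.609 with TNF (adjusted p = 8.72e-12), a 122-fold difference, and 5.39 ± 0.587 with IL-1β (adjusted p = 3.43e-09), a 41.9-fold difference. Without unstimulated replicate 4 the log2 fold changes were 8.97 and 7.43.

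BIRC3 was called with no other cytokine in the edgeR fit over filtered genes. IFNα gave 8.82, 21.7, 23.8 and 39.9 CPM and IFNγ 9.04, 46.5, 16.5 and 17.1 CPM. Both groups lay above unstimulated replicates 1 to 3 and overlapped replicate 4, and the log2 differences of 1.74 and 1.65 did not pass (adjusted p = 0.0664 and 0.0859). Without unstimulated replicate 4 both passed, and in the fit without a count filter both passed too (adjusted p = 1.05e-06 and 7.46e-06). Neither passed with the DESeq2 Wald test (adjusted p = 0.156 and 0.164) or with only the 8 libraries compared (0.191 and 0.303). The unfiltered edgeR fit also took the BIRC3 adjusted p with TNF from 8.72e-12 to 5.63e-111 at a nearly unchanged log2 fold change, so its values need caution. With IL-17A, BIRC3 was at 7.88, 8.58, 3.21 and 0 CPM, a log2 difference of -0.49 with a 95% interval from -2.02 to 1.05 (adjusted p = 0.879). IL-17A replicates 1 to 3 lay above unstimulated replicates 1 to 3 and below unstimulated replicate 4. Without unstimulated replicate 4, BIRC3 was again not called with IL-17A. The lowest group was OSM, at 0, 0, 0.667 and 3.30 CPM, a log2 difference of -2.93 from unstimulated cells that did not pass (adjusted p = 0.131), but passed with the DESeq2 Wald test (adjusted p = 0.0445) and without a count filter (adjusted p = 2.63e-06). In edgeR it did not pass with DESeq2 size factors (adjusted p = 0.136) or with a replicate block (adjusted p = 0.122). Exons of BIRC3 share 126 bases with an antisense long non-coding RNA.

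TRAF1 (chr9:120902393-120929173, minus strand) encodes an adaptor that binds TRAF2 and cIAP proteins. It was at 0 counts in the unstimulated, OSM, IL-6, IL-13, IL-17A and IL-22 libraries. TNF gave 0, 9.47, 2.25 and 1.07 CPM, or 16 counts, and IL-1β 0, 0, 2.54 and 3.89 CPM, or 10 counts. The TNF mean of 3.20 CPM rested on 11 counts in replicate 2, and the difference did not pass in the fit without a count filter (adjusted p = 0.0545).

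To set cytokines against each other without the shared unstimulated libraries, groups were compared directly in the same edgeR fit. TNF at 10 ng/ml against IL-1β at 0.1 ng/ml are side by side at unequal doses, so these values hold for the doses used. Of the 7 tested members, 1 was lower with TNF, where 0.694% of all tested genes were called lower, and 0 were higher. The gene was NFKBIZ, with a log2 difference of -1.96 ± 0.344 (adjusted p = 0.000609), and all 4 TNF libraries lay below all 4 IL-1β libraries. For NFKB1 the difference was 0.07 with a 95% interval from -0.90 to 1.05. For TNFAIP3 it was 0.90 (-0.40 to 2.19, adjusted p = 0.616), and the TNF and IL-1β libraries overlapped. NFKBIA and BIRC3 pointed the other way from NFKBIZ, with all TNF libraries above all IL-1β libraries and log2 differences of 0.48 (-0.01 to 0.97, adjusted p = 0.438) and 1.54 (0.64 to 2.44, adjusted p = 0.0743) that did not pass. The BIRC3 difference passed with only the 8 libraries compared (adjusted p = 6.47e-05) and without a count filter (adjusted p = 6.09e-09). It did not pass with the DESeq2 Wald test (adjusted p = 0.329), so that its call depended on the setting.

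IL-17A at 10 ng/ml was compared with IL-1β at 0.1 ng/ml in the same way. With IL-17A, 4 of 7 tested members were lower and 0 higher, where 1.86% of all tested genes were called lower. BIRC3 differed by -5.87 ± 0.612 on the log2 scale (adjusted p = 3.19e-09), NFKB1 by -2.36 ± 0.532 (adjusted p = 0.00395), NFKBIA by -1.57 ± 0.251 (adjusted p = 2.94e-05) and TNFAIP3 by -2.53 ± 0.709 (adjusted p = 0.032). The TNFAIP3 call was lost without any 1 of 6 of the 8 libraries, namely IL-17A replicates 1, 2 and 4 and IL-1β replicates 2, 3 and 4, with adjusted p up to 0.121. NFKBIZ differed by -0.31 with a 95% interval from -0.97 to 0.34 (adjusted p = 0.777), and the 2 groups overlapped.

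TNF and IL-17A, both at 10 ng/ml, were compared directly after the values of the members had been seen. With TNF, 5 of 7 tested members were higher, where 4.18% of all tested genes were called higher, and 1 was lower, where 4.32% were called lower. Of the 5, NFKB2 had passed the filter on low counts through its TNF libraries, so its call is not separate from that filter. BIRC3 was higher by 7.41 ± 0.631 on the log2 scale (adjusted p = 6.12e-12), TNFAIP3 by 3.43 ± 0.723 (adjusted p = 0.00117), NFKB2 by 4.24 ± 1.055 (adjusted p = 0.00632), NFKB1 by 2.44 ± 0.534 (adjusted p = 0.00165) and NFKBIA by 2.05 ± 0.254 (adjusted p = 8.9e-08). NFKBIZ was lower with TNF by a log2 difference of -1.64 ± 0.343 (adjusted p = 0.000931). The 2 cytokines thus differed in opposite directions on NFKBIZ and on the other called members.

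**Figure D3:**
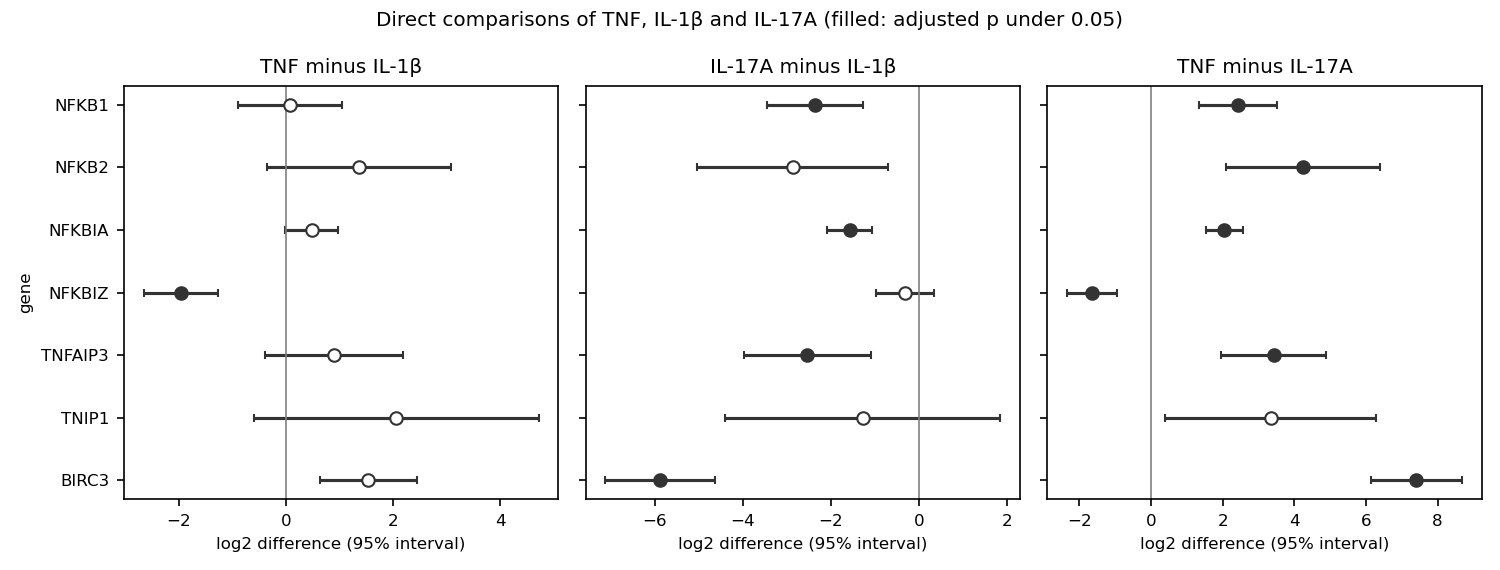
Direct log2 differences between cytokine groups for the 7 tested genes with 95% intervals, from TNF minus IL-1β, IL-17A minus IL-1β and TNF minus IL-17A, where filled points had an adjusted p under 0.05. NFKBIZ lies below 0 for TNF minus IL-1β (-1.96) and TNF minus IL-17A (-1.64), whereas BIRC3 lies above 0 in both (1.54, not called, and 7.41).

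The plot of paired levels within libraries shows the same separation library by library. In the IL-17A libraries NFKBIZ was between 48.9 and 85.8 CPM while BIRC3 was between 0 and 8.58 CPM. In the TNF libraries NFKBIZ was between 15.5 and 31.8 CPM while BIRC3 was between 712 and 1038 CPM. Of these 3 groups, the IL-1β libraries were high in both, at 70.1 to 97.3 CPM for NFKBIZ and 238 to 351 CPM for BIRC3.

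**Figure D4:**
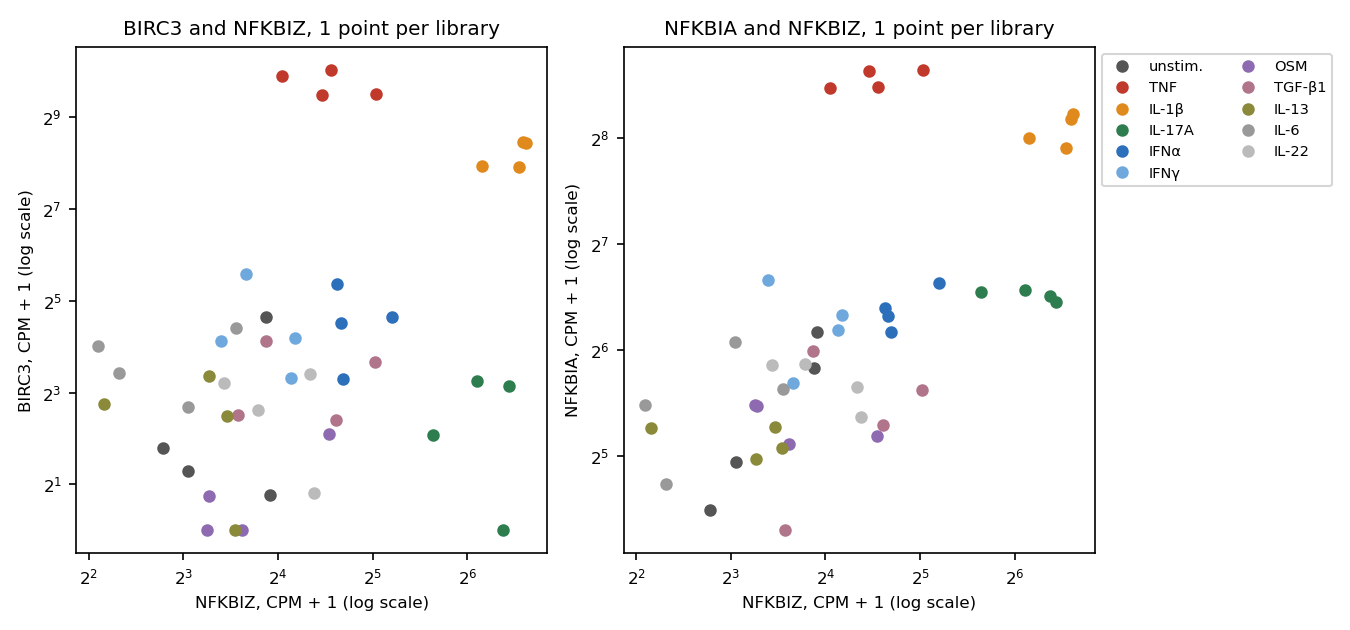
Level of BIRC3 (left) and of NFKBIA (right) against the level of NFKBIZ, as CPM + 1 on log axes with 1 point per library, coloured by group. The IL-17A libraries lie at high NFKBIZ (48.9 to 85.8 CPM) with low BIRC3 (0 to 8.58 CPM), and the TNF libraries at 15.5 to 31.8 CPM of NFKBIZ with the highest BIRC3 (712 to 1038 CPM).

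IFNα and IFNγ, both at 10 ng/ml, called 0 of 7 tested members when compared directly by edgeR, where 9.39% of all tested genes were called in either direction. At this comparison 3 of 7 members had an unadjusted p under 0.05, beside 1966 of all 9513 tested genes, and DESeq2 also called 0 members. NFKBIZ came nearest to the threshold in edgeR, higher with IFNα in 4 of 4 libraries (log2 difference 0.97, 95% interval 0.23 to 1.71, adjusted p = 0.0901). TNFAIP3 was also higher in 4 of 4, at 16 counts in all with IFNα and 1 with IFNγ (3.25, 0.72 to 5.78, adjusted p = 0.1). With the DESeq2 Wald test TNFAIP3 was the nearer of the 2 (adjusted p = 0.0511, and 0.0749 for NFKBIZ). For NFKBIA the difference was 0.13 with an interval from -0.39 to 0.65, and for BIRC3 it was 0.08 with an interval from -1.03 to 1.20.

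OSM, TGF-β1, IL-13, IL-6 and IL-22 called 0 of the 7 tested members each in edgeR. Of all tested genes, 3.96% were called in either direction with OSM, 5.69% with TGF-β1, 3.93% with IL-13, 0.0105% with IL-6 and 0% with IL-22. At an unadjusted p under 0.05 there were 2 members with OSM, 1 with TGF-β1, 1 with IL-13, 0 with IL-6 and 0 with IL-22. Over all 9513 tested genes, 1455 reached that cut with OSM, 1799 with TGF-β1, 1486 with IL-13 and 233 with IL-6. The DESeq2 Wald test called 1 member with OSM, BIRC3, and 0 with the other 4. It gave no adjusted p for 3 of the 7 members with OSM, 2 with TGF-β1, 2 with IL-13 and 5 with IL-22. For these genes its result cannot be read as a missing call. For IL-22, where edgeR called 0 genes in all, 1037 genes had an unadjusted p under 0.05 and DESeq2 called 96. The members' median log2 difference was -2.26 with OSM, the lowest of the 10 comparisons, at levels of BIRC3, NFKB2, TNIP1 and TNFAIP3 that were at or under 1 CPM on average.

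Beyond the 10 members, a list of 48 other NF-κB pathway genes held 31 tested genes. TNF raised 5 of the 31 and lowered 0, where 5.37% of all tested genes were called higher, with a list median of 0.39 on the log2 scale beside -0.02 over all tested genes. TRAF3, an adaptor that restrains the alternative pathway by targeting the kinase NIK, rose from 2.83 CPM ± 1.88 to 18.8 CPM ± 8.53 (log2 fold change 2.69 ± 0.605, adjusted p = 0.00147). BIRC2, which encodes cIAP1, rose by 1.56 ± 0.243 (adjusted p = 6.74e-06), TNFRSF12A, the receptor for TWEAK, by 1.38 ± 0.388 (adjusted p = 0.0127), and RIPK2, the kinase that signals from NOD receptors, by 1.36 ± 0.271 (adjusted p = 0.000335). The remaining gene, named after its values were seen, was CYLD, a deubiquitinase that limits the pathway, at 0.91 ± 0.301 (adjusted p = 0.0396). IL-1β raised 3 of 31, against 3.46% of all tested genes, with a list median of 0.11, namely RIPK2 by 1.81 ± 0.272 (adjusted p = 3.94e-06), BIRC2 by 1.06 ± 0.242 (adjusted p = 0.00219) and the IKK-related kinase TBK1 by 0.68 ± 0.193 (adjusted p = 0.0184). IL-17A, IL-6, IL-13 and IL-22 called 0 of 31 in edgeR.

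RIPK2 was raised by both interferons as well, by 1.16 ± 0.271 with IFNα (adjusted p = 0.00211) and 1.88 ± 0.273 with IFNγ (adjusted p = 1.7e-06). IFNα called 2 of 31 higher, near the share of all tested genes (4.99%), the other being TBK1 (log2 fold change 0.62, adjusted p = 0.0299). IFNγ called 2 of 31 higher and 1 lower, near the shares of all tested genes (5.52% higher, and 488 of 9513 genes lower). Of these, the IL-1 receptor gene IL1R1 rose from 26.9 CPM ± 9.46 to 75.4 CPM ± 29.8 (log2 fold change 1.49, adjusted p = 0.00174) and the ubiquitin ligase gene ITCH fell by 0.98 on the log2 scale (adjusted p = 0.0225). OSM raised 1 of 31, beside 135 of 9513 genes called higher, which was IL1R1 at 85.0 CPM ± 24.2 (log2 fold change 1.66, adjusted p = 0.00109), and TGF-β1 lowered 1 of 31, beside 293 of 9513 genes called lower, which was MAP3K7, the gene of the kinase TAK1, at a log2 difference of -0.86 (adjusted p = 0.02). In the direct comparison of IL-17A with IL-1β, 2 of 31 were lower with IL-17A, against 1.86% of all tested genes, RIPK2 (-1.96, adjusted p = 2.58e-06) and BIRC2 (-1.23, adjusted p = 0.000814), both named after their values were seen.

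Across the 11 group means, the genes outside both lists whose profile was most like the mean profile of the 7 tested members were AKR1B1, DNAJB9, GRB14, TVP23B and BTG3, with Pearson's r from 0.973 to 0.979 over 11 groups. AKR1B1 went from 159 CPM in unstimulated cells to 1440 CPM with TNF and 764 CPM with IL-1β, and BTG3 from 43.5 to 153 and 112 CPM. These correlations describe 11 points that share their libraries and their normalisation, and TNF and IL-1β set most of their range. Of the members, BIRC3 had the highest correlation with the mean profile (0.979) and NFKBIZ the lowest (0.545), with TNIP1 next (0.57). Each member is itself 1 of the 7 genes in that mean, which raises its own correlation.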

How the data were processed

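RNA of 44 Ccd-18Co libraries was prepared with a NEBNext Ultra II kit and sequenced on an Illumina NovaSeq by service providers. Per the labels' processing notes, FastQC 0.11.9, MultiQC 1.14 and kallisto 0.48.0 were used with build hg38; the transcriptome release, the step to genes and the strand setting are not given in the sources used here. The authors deposited estimated counts per gene symbol, of which 5.77% were not whole, and these were not scaled for depth. Columns were assigned to groups by the library names in the labels, and 0 columns belonged to other samples.

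Estimated counts were rounded and filtered with filterByExpr over the 11 groups. In R 4.3.3, edgeR 4.0.16 fitted all 44 libraries with TMM and glmQLFit (common biological coefficient of variation 0.331), and p-values from glmQLFTest were adjusted by Benjamini-Hochberg over 9513 genes. SE is the log2 fold change divided by the root of F, and 95% intervals use 33 residual degrees of freedom. CPM are rounded counts scaled by edgeR to the TMM library size. The 3-count floor covers counting error alone: the sources name no molecular identifiers, and without them copies made by PCR are counted too. No pair of libraries of a group held identical values. Exons and transcript lengths came from GENCODE 44 and promoters from RefSeq.

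The members, the pathway list and the cell markers were chosen with earlier results of these data known. Named pathway genes were the called ones with the largest absolute log2 fold change, up to 4 rising and 4 falling per cytokine. The profile genes were the 5 tested genes outside both lists with the highest Pearson's r. Alternatives were DESeq2 1.42.0 (Wald test, and its size factors in edgeR), no filter, at least 10 counts in at least 4 libraries, a replicate block, only the 8 libraries compared, the fold threshold and each library left out. Scripts were tested on simulated data.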

Additional observations from a re-analysis of the deposited data

Results flagged for a closer look

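Of 98 sets of 4 libraries with a range above 0 (10 genes in 11 groups, 12 sets being at 0 throughout), 21 held 1 library far from the other 3 by Dixon's test. Chance flags about 1 in 20 sets of continuous values, a rate that does not apply where the other 3 libraries are at 0, since any single count is then flagged. The set with the most counts was BIRC3 in unstimulated cells, where replicate 4 was at 23.9 CPM (35 counts) and the others at 0.704 to 2.45 CPM. NFKBIZ with IFNα was at 35.7 CPM in replicate 3 and 23.7 to 24.8 CPM in the others.

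The remaining 19 rested on 1 to 9 counts. TNFAIP3 was at 4.22 CPM in unstimulated replicate 3, 5.46 CPM in TGF-β1 replicate 1, 0.867 CPM in IFNγ replicate 3 and 0.825 CPM in OSM replicate 4. TNIP1 was at 5.84 CPM in IL-1β replicate 4, 3.55 CPM in IL-13 replicate 4, 8.97 CPM in IL-22 replicate 3 and 0.667 CPM in OSM replicate 3. NFKB2 was at 2.13 CPM in TGF-β1 replicate 2 and 0.825 CPM in OSM replicate 4. RELB was at 2.42 CPM in IL-6 replicate 4, 1.39 CPM in IL-17A replicate 1, 0.712 CPM in IFNγ replicate 4 and 0.593 CPM in OSM replicate 2. NFKBIE was at 3.56 CPM in IFNγ replicate 4, 0.78 CPM in TGF-β1 replicate 1 and 0.667 CPM in OSM replicate 3. TRAF1 was at 1.51 CPM in IFNγ replicate 1 and 3.63 CPM in TGF-β1 replicate 3. In each of these sets the other 3 libraries lay below 1 CPM.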

How the results depend on the processing

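Of 26 called differences of members, 0 reversed. Under 6 other settings, 151 of 156 values kept their call and 5 lost it, with adjusted p of 0.12, 0.0816 and 0.229 for NFKBIA with IL-17A, IFNα and IFNγ and 0.0993 for NFKBIZ with TNF when only the 8 libraries were fitted, and 0.0695 for NFKBIZ with TNF without a filter. With 1 library left out, 180 of 208 kept it. The number of members called moved as follows. With the fold threshold it was 0 for IFNα, 0 for IFNγ and 1 for IL-17A. With only the 8 libraries it was 1 for IFNα, 0 for IFNγ, 1 for IL-17A and 2 for TNF against IL-1β. Without a filter it was 2 for IFNγ, 1 for OSM and 2 for TNF against IL-1β, and with DESeq2 it was 1 for OSM. Leaving out 1 library gave 1 to 3 for IFNα, 0 to 2 for IFNγ and 1 to 3 for IL-17A. The cause was not tested.

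The replicate numbers were not taken as pairs: 0 of 14 comparisons had all 4 pair correlations above 0.1 (range -0.125 to 0.281), and 22 of 44 libraries correlated best with their own number, as a hint from the data and not from the design. With a replicate block the count for TNF against IL-1β was 2, with BIRC3 added (adjusted p = 0.0494), NFKB2 was added for TNF (adjusted p = 0.0441), and genes called rose from 145 to 223 for IL-17A and from 0 to 12 for IL-22. Normalisation by DESeq2 size factors added NFKB2 for TNF. Depth limits RELB, NFKBIE, TRAF1 and TNIP1, whose counts per library reached at most 20.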
